A study of Homo sapiens with 3 samples.

Results

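Nuclear receptors are transcription factors that mostly answer to small lipophilic ligands such as thyroid hormone, retinoids, steroids, oxysterols and bile acids. Many of them bind DNA as heterodimers with a retinoid X receptor and exchange corepressors for coactivators when the ligand is bound. The REV-ERB and ROR receptors are built into the circadian clock itself, where they act on ROR elements in the promoter of BMAL1. The present account covers the receptor genes outside that loop. BMAL1 is the clock activator that pairs with CLOCK on the E-box CACGTG, and MAX is the partner of MYC and of the MXD and MNT repressors on the same hexamer.

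The genes were chosen by name, as the nuclear receptor family without the NR1D and ROR genes, which gave 42 of the 20162 protein-coding genes of GENCODE release 44 on hg19. The rule uses no measured value, but it was set with earlier results of these data known. The data comprised chromatin immunoprecipitation sequencing of BMAL1 and of MAX in MDA-MB-231, an established line of human triple-negative breast cancer cells, as 1 library per antibody with 1 input as the control of both. All 3 libraries came from adherent cells cultured in medium with fetal bovine serum and cross-linked with formaldehyde, and the labels name no treatment, synchronisation or circadian time. The authors called 756 BMAL1 peaks from 13866783 tags and 13650 MAX peaks from 11545865 tags, both against 29308882 input tags. With no replicate library, no value below has a replicate error and no test between conditions could be made. The intervals on pileups cover counting error of fragments only. Those on shares treat the genes or peaks as independent draws, although the genes were chosen by name and not sampled. A gene without a listed peak is a gene at which none passed the cutoff at this depth. Peak lists carry no expression level, so the labelled cell line could not be checked against its marker genes, and which of these receptors the cells express was not measured here.

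A peak was assigned to a promoter if its summit lay within 1 kb of any annotated transcription start site (TSS) of the gene, and to the gene body if the summit lay inside the gene and farther than 1 kb from all of its TSSs. The quantities used throughout are the deposited pileup, which is the number of extended fragments over the summit, and the fold enrichment, which is that pileup divided by the local background from the input. E-boxes are matches to CACGTG, which reads the same on both strands, in the 200 bp centred on a summit. A match describes the letters of the reference genome and is not proof of a contact.

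To show the sites of BMAL1 at base level, the E-box nearest the summit of each BMAL1 peak of the family is printed here with 12 bases to either side, on the plus strand of hg19, 5′ to 3′, with the hexamer in capitals. The promoter sites of THRA, ESRRA and NR6A1 are joined by the pair of intronic sites of THRB, the gene with BMAL1 peaks in its body.
THRA, chr17:38225266-38225295: tgtgtgtgtctgCACGTGtccgtgtgtgtg
ESRRA, chr11:64072270-64072299: gtgaggcggacgCACGTGgccccgcccttc
NR6A1, chr9:127533912-127533941: cagccgggtgagCACGTGcaacgaagccca
THRB, chr3:24341670-24341699: ggtggctggttaCACGTGactttgctcagt
THRB, chr3:24227521-24227550: caagtggctcccCACGTGcagtcagggaag
The THRA hexamer sits in a run of TG repeats, whereas those of ESRRA and NR6A1 lie outside the gene, upstream of its annotated start.

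MAX peaks were listed at the promoters of 19 of the 42 receptor genes (45.2%, Wilson 95% interval 31.2 to 60.1). Among all protein-coding genes, 36.3% had a MAX summit within 1 kb of a TSS, which lies within that interval. BMAL1 peaks were listed at the promoters of 3 of the 42 genes, THRA, ESRRA and NR6A1 (7.14%, 2.46 to 19.0). Among all protein-coding genes the share was 1.85%, which lies below that interval. The receptor share rests on 3 genes, and the 1.85% is not matched for base composition or number of TSSs. Whether the receptors differ from other genes was not tested. All 3 BMAL1 peaks overlapped a MAX peak, as did 93.1% of the BMAL1 peaks at promoters of all protein-coding genes. A further 7 genes had peaks in the gene body and none at a promoter, and 16 genes had no peak of either factor.

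**Figure D1:**
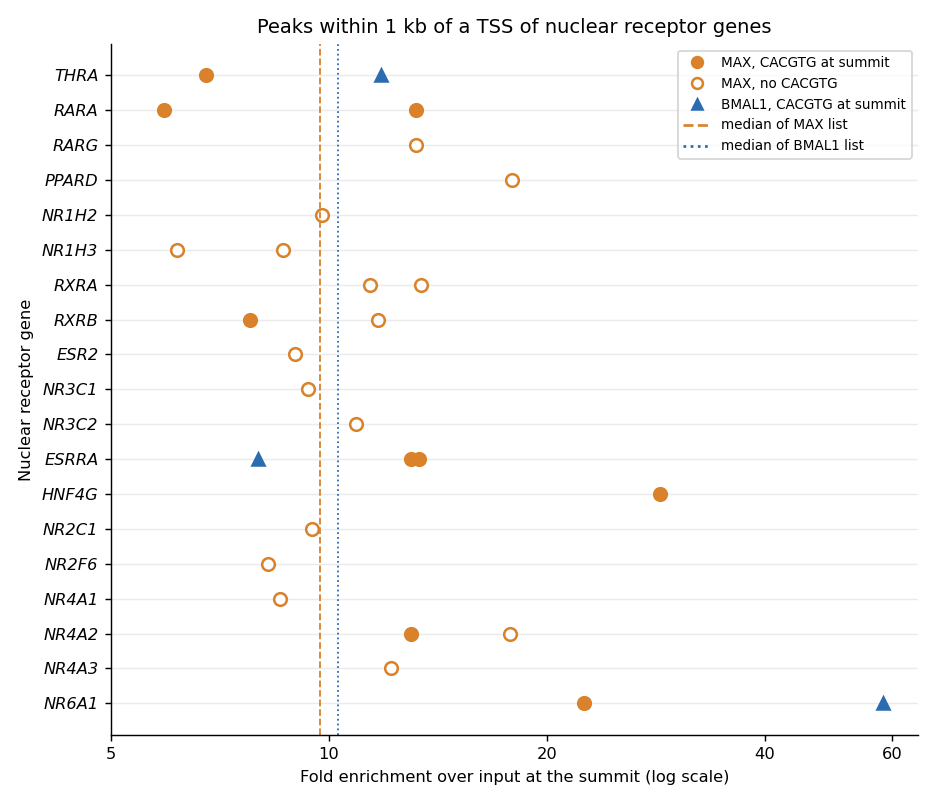
Fold enrichment over input (log scale) of every MAX peak (circles) and BMAL1 peak (triangles) with its summit within 1 kb of a TSS of a nuclear receptor gene, 1 gene per row, filled where CACGTG lies in the 200 bp at the summit. The vertical lines are the medians of the whole lists, 9.73 for MAX and 10.3 for BMAL1. NR6A1 holds the highest BMAL1 value, 58.2, and HNF4G the highest MAX value, 28.7.

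NR6A1, which encodes an orphan receptor known for silencing pluripotency genes in differentiating embryonic cells, carried by far the highest BMAL1 value among the receptors. Its BMAL1 peak (chr9:127533594-127534557) had a pileup of 114 fragments (exact Poisson 95% interval 94.0 to 137), a −log10 p of 156 and a fold enrichment of 58.2. It ranked 11 of the 756 BMAL1 peaks by fold enrichment. The MAX peak at the same place (chr9:127533653-127534171) had a pileup of 37 (26.1 to 51) and a fold enrichment of 22.5, above 97.7% of the MAX list. The summits lay 3 bp apart, 311 and 314 bp upstream of the canonical TSS. They fall outside NR6A1, within an exon of a non-coding RNA, ENSG00000236643, that is annotated on the opposite strand. The 200 bp at the BMAL1 summit hold a pair of E-boxes, 25 and 84 bp from it, and are shown in the direction of NR6A1 transcription (hg19, minus strand, chr9:127533801-127534000), with both hexamers in capitals.
NR6A1: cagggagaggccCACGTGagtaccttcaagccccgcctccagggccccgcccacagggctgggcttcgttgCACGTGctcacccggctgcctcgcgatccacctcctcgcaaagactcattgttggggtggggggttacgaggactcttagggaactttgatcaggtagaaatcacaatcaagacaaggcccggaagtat
No other receptor gene held more than 1 E-box in the window of its BMAL1 peak.

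ESRRA, the estrogen-related receptor that acts with PPARGC1 coactivators on genes of mitochondrial energy metabolism, had a pair of MAX peaks of nearly equal height. The upstream peak (chr11:64071981-64072509) had a pileup of 23 (14.6 to 34.5) and a fold enrichment of 13.0, and peaked 720 bp upstream of the nearest TSS. The other (chr11:64073434-64073909) had a pileup of 22 (13.8 to 33.3) and a fold enrichment of 13.3, and peaked 67 bp upstream of another ESRRA TSS. Both held an E-box, 35 and 49 bp from the summit. BMAL1 was listed at the upstream site alone (chr11:64072096-64072403), with a pileup of 17 (9.90 to 27.2) and a fold enrichment of 7.98. This value was below the BMAL1 list median of 10.3, and the BMAL1 and MAX summits were 6 bp apart. The upstream summits also lay 1 bp (BMAL1) and 7 bp (MAX) past the 3′ end of the neighbouring gene CATSPERZ, and both peaks reach into that gene. The E-box of the second ESRRA peak is printed to show its flanks beside those of the upstream site.
ESRRA, chr11:64073568-64073597: ggctctgaagacCACGTGggggcgctcgaa

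THRA encodes thyroid hormone receptor alpha and overlaps the clock gene NR1D1 tail to tail, so the peaks of the shared locus were assigned by position. THRA spans chr17:38214543-38250120 on the plus strand and NR1D1 spans chr17:38249046-38256842 on the minus strand, with 1075 bp in common. The BMAL1 peak of THRA (chr17:38225026-38225521) had a pileup of 28 (18.6 to 40.5) and a fold enrichment of 11.8, and the MAX peak (chr17:38225037-38225395) had a pileup of 16 (9.15 to 26.0) and a fold enrichment of 6.77. Thus the BMAL1 value was above 63.0% of its list, whereas the MAX value was above 12% of its list. The summits were 55 bp apart, 85 and 30 bp downstream of an internal TSS of a protein-coding transcript. They lay 6023 and 5968 bp from the canonical TSS, in an intron of the canonical transcript and in a 5′ UTR exon of another.

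The far stronger peaks of the locus lay in or upstream of NR1D1, which encodes REV-ERB alpha. They were assigned to NR1D1 by distance, with THRA as the only other gene considered. The BMAL1 summit with a fold enrichment of 127, the highest of the BMAL1 list, lay inside NR1D1 and 5295 bp past the end of THRA. The MAX summit that overlapped it had a fold enrichment of 39.0. At the NR1D1 promoter the values were 58.1 for BMAL1 and 17.1 for MAX, and upstream of NR1D1 they were 43.8 and 17.8. A further MAX peak with a fold enrichment of 14.8 lay 12797 bp from the nearest NR1D1 TSS, with no BMAL1 peak on it. None of these 7 summits fell inside THRA, and the nearest was 14728 bp from a THRA TSS. The THRA pair in turn lay 31601 and 31656 bp from the nearest NR1D1 TSS, so it was counted as a site of THRA and not as part of the NR1D1 cluster.

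**Figure D2:**
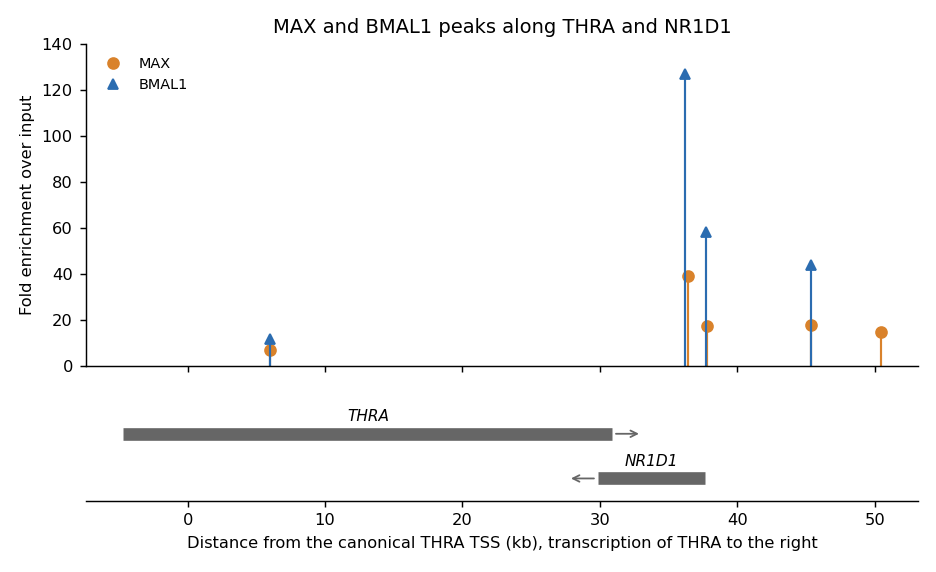
Fold enrichment over input of the BMAL1 (triangles) and MAX (circles) peaks along THRA and NR1D1, by distance of the summit from the canonical THRA TSS in kb, with the gene spans and their direction below. The THRA pair, at 11.8 for BMAL1 and 6.77 for MAX, is separated from the NR1D1 peaks, which reach 127 and 39.0 and lie beyond the end of THRA.

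Among the other receptors for thyroid hormone and retinoic acid, RARA had a pair of MAX promoter peaks and RARG had 1, while THRB and RARB had gene body peaks. RARA, the retinoic acid receptor alpha, had a fold enrichment of 13.2 at chr17:38474393-38474776 and of 5.92 at chr17:38501321-38501701, with pileups of 17 (9.90 to 27.2) and 14 (7.65 to 23.5). Both summits lay just upstream of internal TSSs, by 42 and 44 bp, while the canonical TSS was 9059 and 36017 bp away. The stronger summit was also within 1 kb of a TSS of the non-coding RNA ENSG00000287644. Each held an E-box, and in the weaker of the peaks it was 3 bp from the summit.
RARA, chr17:38474518-38474547: tttcagcctccgCACGTGactcgctatggc
RARA, chr17:38501431-38501460: aagaatgtgaagCACGTGgatgcccgtagt
The fold enrichment of 5.92 was the lowest of all receptor promoter peaks, so an E-box near the summit did not go with a high value there. That peak had a −log10 p of 7.47, below the threshold of 8 in the study's methods. RARG, the gamma receptor, had a fold enrichment of 13.2 and a pileup of 17 (9.90 to 27.2) with no E-box. Its summit was 626 bp from the TSS of a retained-intron transcript and 801 bp from that of a coding one.

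Of the 9 sensors of lipids, bile acids, xenobiotics and vitamin D, PPARD, NR1H2 and NR1H3 had MAX promoter peaks, and none of these 4 peaks held an E-box. PPARD, a fatty acid sensor, had the strongest (chr6:35310061-35310528), with a pileup of 26 (17 to 38.1) and a fold enrichment of 17.9, above 93.6% of the MAX list. Its paralogues PPARA and PPARG had no peak of either factor, and the nearest MAX summits to their TSSs were 27812 and 47056 bp away. NR1H2 and NR1H3 encode the oxysterol-binding liver X receptors. NR1H2 had a fold enrichment of 9.79 and a pileup of 14 (7.65 to 23.5). NR1H3 had 6.16 and 8.63 at its pair of peaks, each with a pileup of 17 (9.90 to 27.2). The weaker NR1H3 peak lay 6 bp from a TSS of NR1H3 and 4 bp from a TSS of the neighbouring gene ACP2, and could not be assigned to either gene. It also had the highest input background of the receptor promoter peaks, 2.76.

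RXRA and RXRB encode the retinoid X receptors on which most of the ligand-binding receptors above depend as partners. RXRA had MAX promoter peaks with fold enrichments of 13.4 (pileup 27, 17.8 to 39.3) and 11.4 (pileup 23, 14.6 to 34.5), both without an E-box. These lay at an internal TSS, over 50 kb from the canonical one (52707 and 53729 bp), and within 1 kb of the microRNA gene MIR4669. RXRB had fold enrichments of 7.79 (pileup 10, 4.80 to 18.4) and 11.7 (pileup 15, 8.40 to 24.7). Both RXRB peaks lay within 1 kb of the divergent gene SLC39A7, the stronger of them 1 bp from its TSS, and also within 1 kb of the Y RNA pseudogene RNY4P10. Only the weaker RXRB peak held an E-box, 13 bp from the summit. Its −log10 p of 6.92 was below the threshold of 8 in the study's methods.
RXRB, chr6:33167613-33167642: tgggtggggcagCACGTGgggtagaccatc
RXRG, the retinoid X receptor largely restricted to muscle and brain, had no peak, with the nearest MAX summit 31772 bp away.

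The steroid hormone receptors with MAX promoter peaks were ESR2, NR3C1 and NR3C2, for estrogen, glucocorticoids and mineralocorticoids. Their fold enrichments were close to the list median of 9.73, at 8.97 for ESR2, 9.35 for NR3C1 and 10.9 for NR3C2. The pileups were 14 (7.65 to 23.5), 12 (6.2 to 21.0) and 14 (7.65 to 23.5), and these intervals overlap. None of the 3 held an E-box, and the ESR2 peak lay at the most upstream TSS, 43899 bp from the canonical one and within 1 kb of the non-coding RNA ENSG00000214770. ESR1 and PGR, the receptors whose protein is by definition not detected in triple-negative tumours, had no promoter peak. ESR1 had a MAX peak with a fold enrichment of 9.17, and PGR had no peak of either factor. The ESR1 peak lay in an intron of a transcript other than the canonical one, 138521 bp from the canonical TSS.

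The NR4A genes, which encode ligand-independent receptors induced within minutes by growth factors and stress, all had MAX promoter peaks and no BMAL1 peak. NR4A2 had the strongest of them at its canonical TSS (chr2:157188973-157189761), with a pileup of 40 (28.6 to 54.5) and a fold enrichment of 17.8 and no E-box. A second NR4A2 peak (chr2:157197866-157198391), 8901 bp from the canonical TSS, had a fold enrichment of 13.0 and a pileup of 20 (12.2 to 30.9) and held an E-box 64 bp from its summit.
NR4A2, chr2:157198055-157198084: ctgcctgcctgcCACGTGcgagacgctcca
NR4A3 had a fold enrichment of 12.2 with a pileup of 24 (15.4 to 35.7), and NR4A1 had 8.57 with 11 (5.49 to 19.7). The NR4A1 peak had a −log10 p of 7.89, just below the threshold of 8 in the study's methods. At that threshold NR4A1 would have no MAX promoter peak. The intervals of the NR4A1 and NR4A2 canonical peaks do not overlap, and that of NR4A3 overlaps both. All 3 NR4A genes are CpG-rich, and 49.9% of CpG-rich protein-coding genes had a MAX promoter peak.

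HNF4G, a paralogue of the liver and gut receptor HNF4A, carried the highest MAX value of the family. The peak (chr8:76319130-76320086) had a pileup of 61 (46.7 to 78.4), a −log10 p of 66.1 and a fold enrichment of 28.7, which ranked 80 of the 13650 MAX peaks. An E-box lay 6 bp from the summit, and no BMAL1 peak was listed there. The summit was 728 bp upstream of the first TSS of the gene, which belongs to a transcript without a defined coding sequence. The nearest TSS of a coding transcript was 850 bp away. The canonical TSS was 132683 bp away, and its own surroundings were the poorest in CpG of the family (observed over expected CpG 0.0328). NR2C1, a testicular orphan receptor that binds direct repeats, had a fold enrichment of 9.47 and a pileup of 15 (8.40 to 24.7) at its canonical TSS. An E-box lies 124 bp from that summit, just outside the window searched. NR2F6, of the COUP-TF group, had a fold enrichment of 8.25 and a pileup of 13 (6.92 to 22.2). HNF4A and NR2E3 had gene body peaks, whereas NR2C2, NR2E1, NR2F1 and NR2F2 had none.

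In the remaining group, NR6A1 was the sole gene with a peak. NR5A1 and NR5A2, regulators of steroid and bile acid synthesis, had none, and neither had NR0B1 and NR0B2, which lack a DNA-binding domain and inhibit other receptors.

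To place the receptor promoters among all promoters, 25 MAX peaks at the 19 genes were compared with the 7285 MAX peaks at promoters of protein-coding genes. The median fold enrichment was 11.4 at receptors (5.92 to 28.7), 10.2 at all coding promoters and 9.73 in the whole list. By pileup the order was the other way, with medians of 17 and 18. In 7 of the 25 peaks the input background stood at its lowest, genome-wide level, so that fold enrichment followed pileup alone, against 17.3% of all coding promoter peaks. CACGTG was found at 9 of the 25 summits (36.0%, 20.2 to 55.5), against 20.5% of all MAX peaks at coding promoters. In windows of the same length 2 kb to either side it was found in 2 of 50 at the receptors and in 2.05% overall. Receptor peaks with an E-box had a median fold enrichment of 13.0 and those without one 10.3, with ranges of 5.92 to 28.7 and 6.16 to 17.9 that overlap. The medians over all coding promoters were 12.5 and 9.76.

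Overlap with BMAL1 was found for 3 of the 25 receptor peaks (12%, 4.17 to 30.0), against 4.06% of MAX peaks at coding promoters, just below that interval. All 3 of these held an E-box, as did 70.9% of the 296 overlapping peaks at coding promoters. Of the 22 receptor peaks without BMAL1, 6 held an E-box (27.3%), against 18.4% overall. An E-box under a MAX summit was therefore not accompanied by a BMAL1 peak at RARA, RXRB, HNF4G, the second NR4A2 peak or the downstream ESRRA peak. Of these, the weaker RARA peak and the RXRB peak had a −log10 p below 8.

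**Figure D3:**
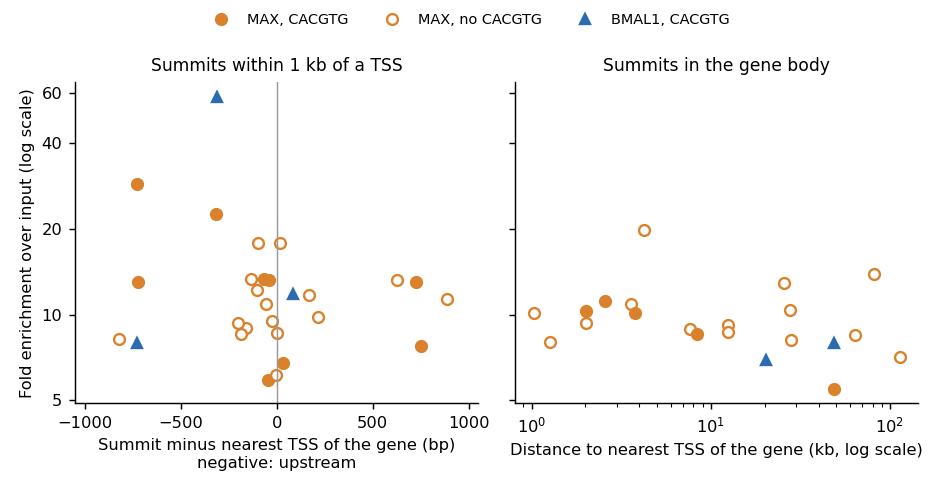
Fold enrichment over input (log scale) of the receptor peaks against the distance of the summit from the nearest TSS of the gene, in bp for promoter peaks (left, negative upstream) and in kb on a log scale for gene body peaks (right). Circles are MAX peaks, filled where CACGTG lies at the summit, and triangles are BMAL1 peaks, all of which have it. MAX summits gather close to the TSS, 17 of the 25 within 300 bp, and the NR6A1 BMAL1 peak stands above the rest.

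MAX summits lay at a median of 158 bp from a TSS of the receptor gene, against 130 bp for all protein-coding genes, and 16 of 25 (64.0%) were upstream, against 61.2%. Of the 25 summits, 10 were over 1 kb from the canonical TSS. At THRA, RARA, RARG, RXRA, ESR2, HNF4G and the second NR4A2 peak, MAX thus lay within 1 kb of annotated TSSs other than the canonical one. The same held for the ACP2-side peak of NR1H3. Whether these TSSs are used in the cells was not measured. The peaks nearest the 1 kb limit were those of RXRA (889 bp, fold enrichment 11.4) and NR2F6 (820 bp, 8.25) inside it and of VDR (1026 bp, 10.1) and RXRA (1276 bp, 8.04) outside it.

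Base composition was used neither to choose the genes nor to call the peaks. Genes were called CpG-rich if the 1 kb at the canonical TSS had a GC content of at least 50% and an observed over expected CpG of at least 0.6. MAX promoter peaks were listed at 15 of 25 CpG-rich receptor genes (60.0%, 40.7 to 76.6) and at 4 of 17 CpG-poor ones (23.5%, 9.56 to 47.3). Over all protein-coding genes the shares were 49.9% and 11.9%. All 3 BMAL1 promoter peaks were at CpG-rich genes, the class of 327 of the 372 protein-coding genes with a BMAL1 promoter peak. The 4 CpG-poor genes with a MAX promoter peak were RARA, RARG, NR1H3 and HNF4G, each with a peak at a TSS other than the canonical one at which CpG was measured. The stronger NR1H3 peak was still only 335 bp from the canonical TSS. Among CpG-rich genes, the peaks of THRA (5968 bp), RXRA (52707 and 53729 bp) and ESR2 (43899 bp) were also far from it. The CpG class does not describe the sequence at such distant peaks.

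Receptor genes also had more annotated TSSs than other genes, with medians of 8 and 5, and each TSS gives a further window in which a summit can fall. Among genes with 1 to 4 TSSs, 3 of 9 receptors (33.3%) and 22.3% of all protein-coding genes had a MAX promoter peak. With 5 to 9 TSSs the shares were 7 of 15 (46.7%) and 42.3%, and with 10 or more they were 9 of 18 (50.0%) and 52.7%. This division was chosen after the values were seen.

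**Figure D4:**
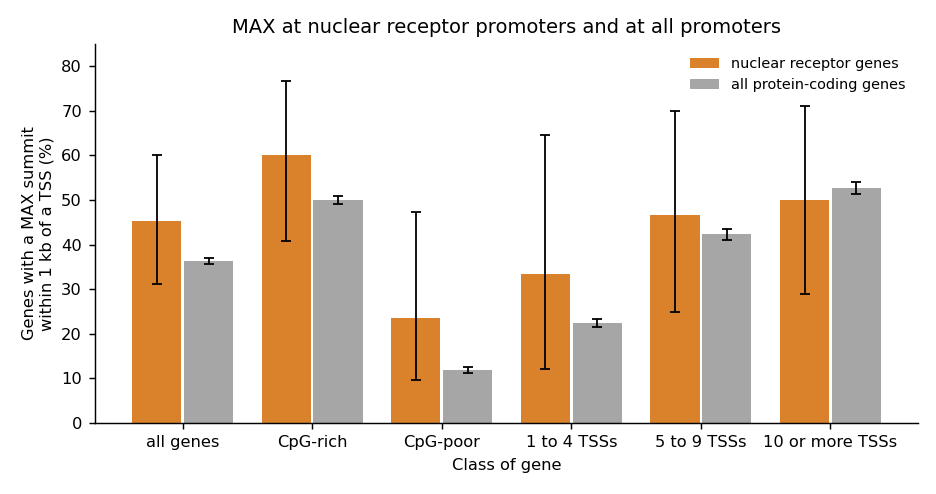
Share of genes (%) with a MAX summit within 1 kb of a TSS, for nuclear receptor genes and for all protein-coding genes, over all genes and by CpG class and number of annotated TSSs. Error bars are Wilson 95% intervals, which treat the genes as independent draws and hold no error between libraries. In every class the interval of the receptors takes in the share of all protein-coding genes.

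In gene bodies, 15 of the 42 receptor genes held 19 MAX peaks (35.7%, 23 to 50.8), against 12.3% of all protein-coding genes. The latter share lies below that interval, and the difference was not tested. Receptor genes are long, with a median length of 53568 bp against 27220 bp, and per 100 kb of gene the MAX body peaks numbered 0.351 in receptors and 0.274 in all protein-coding genes. Their median fold enrichment of 9.35 (5.50 to 19.9) equalled that of all gene body peaks, and 5 of 19 held an E-box (26.3%), against 22.0%. Of the 19, 12 lay in an intron of the canonical transcript. Those of ESR1 and NR2E3 and 1 of RXRA were among the peaks outside that transcript.

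Besides NR1H2, 7 genes with promoter peaks had MAX peaks in their bodies, among them RXRA with 3 (fold enrichments 11.2, 8.04 and 10.4). The values were 10.9 for RARA, 10.3 for RARG, 8.18 for PPARD, 12.9 for ESR2, 9.35 for NR4A2 and 8.46 for NR6A1, and 1 of the NR1H2 body peaks, within 1 kb of the non-coding RNA ENSG00000269392, had 8.88. The PPARD peak had a higher pileup (29, 19.4 to 41.6) than its promoter peak but also an input background of 3.55. The genes with MAX in the body and not at a promoter were THRB, RARB, VDR, ESR1, ESRRG, HNF4A and NR2E3. RARB had the strongest peak of these, with a fold enrichment of 13.9 and a pileup of 21 (13.0 to 32.1). VDR, the vitamin D receptor, had 10.1 (within 1 kb of the non-coding RNA ENSG00000205537) and 8.57. NR2E3, a photoreceptor regulator, had 10.1 with CACGTG at the summit itself, HNF4A had 8.70 and ESRRG 7.11.

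THRB, encoding thyroid hormone receptor beta, was the sole receptor gene with BMAL1 in its body (2.38% of receptor genes, against 1.08% of all protein-coding genes). BMAL1 had a fold enrichment of 7.94 at chr3:24341575-24341893, with a pileup of 16 (9.15 to 26.0), and of 6.95 at chr3:24227361-24227660, with a pileup of 14 (7.65 to 23.5). Both were below the BMAL1 list median, in the lowest 25.8% and 14.4% of the list. The former overlapped a MAX peak with a fold enrichment of 5.50, the lowest of the MAX gene body peaks, with the summits 178 bp apart and each nearest to an E-box of its own. The latter was the sole BMAL1 peak of the family without a listed MAX peak. The MAX peak at the former had a −log10 p of 6.66, below the threshold of 8 in the study's methods. All these summits lay in introns, over 20 kb from any THRB TSS.

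The 16 genes without a peak were PPARA, PPARG, NR1H4, NR1I2, NR1I3, RXRG, PGR, ESRRB, NR2C2, NR2E1, NR2F1, NR2F2, NR5A1, NR5A2, NR0B1 and NR0B2. Several are known for expression restricted to liver, gut, steroidogenic tissue or brain, among them the bile acid receptor NR1H4 and the xenobiotic sensors NR1I2 and NR1I3. The liver and gut receptor HNF4A and the photoreceptor regulator NR2E3 had MAX peaks in the gene body. Expression was not measured here, and its relation to the listed peaks was not tested. The genes without a peak had a median observed over expected CpG of 0.575, against 0.789 for genes with a promoter peak. Of these 16 genes, 6 were CpG-rich, including PPARA, NR2C2 and NR2F2. The median distance from their TSSs to the nearest MAX summit was 50984 bp, from 7855 bp at NR0B2 to 580238 bp at NR0B1. The genes with gene body peaks alone were the longest, with a median of 378604 bp, against 48464 bp for those with promoter peaks and 41219 bp for those without a peak.

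For comparison, the clock receptor genes NR1D1 and NR1D2 had BMAL1 promoter peaks with fold enrichments of 58.1 and 50.0, while RORA and RORB had no peak. The NR6A1 value of 58.2 was thus similar in size to those of the NR1D promoters, and the THRA and ESRRA values of 11.8 and 7.98 were below them. Among 27 nuclear receptor coregulator genes, 14 had a MAX promoter peak (51.9%, 34.0 to 69.3) and 1 a BMAL1 promoter peak (3.70%). That gene was PPRC1, a coactivator of the family that ESRRA works with, with fold enrichments of 6.65 for BMAL1 and 27.9 for MAX. The next highest MAX promoter values were 15.2 at the acetyltransferase gene KAT2B and 14.8 at the coactivator gene PPARGC1B.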

How the data were processed

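BMAL1 and MAX were immunoprecipitated from MDA-MB-231 chromatin and sequenced, with 1 library per antibody and 1 input. According to the study's methods, reads were aligned on hg19 with BWA 0.6.2 and peaks were called with MACS2 2.0.9, separately for each antibody and against the shared input. The deposited signal, the pileup, is the height of extended fragments (300 bp) at the summit and is not scaled to depth. The deposited fold enrichment divides this height by the local input background, as a ratio. For every peak, the authors' caller also wrote the −log10 of the p-value and of the q-value. The cutoff on the p-value was 1e-05 in the file headers but stricter in the methods (−log10 p of 8), and all listed peaks were used. At most 2 tags per position were kept for BMAL1 and 1 for MAX, and the lowest input backgrounds were 1.54 and 1.28.

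TSSs were those of all GENCODE release 44 transcripts on GRCh37 (hg19), whereas the study used a UCSC annotation. Overlap was counted at 1 bp or more. Shares carry Wilson 95% intervals and pileups exact Poisson 95% intervals. Because there is 1 library per antibody, no test was run. The genes, the roles and the comparison lists were chosen with earlier results of these data known. Every gene with a promoter peak is named with its promoter peaks and every gene with body peaks alone with its strongest. Some neighbouring and comparison genes, and 1 gene body peak of NR1H2, are not reported here. Alternatives covered the TSS window, the TSS set, the p-value threshold, the overlap rule, the measure of enrichment and the motif and its window. The counting steps were tested on simulated data. The tools were scipy 1.17.1 for intervals, pysam 0.24.0 for sequence, pandas 2.3.3 and numpy 2.4.6 for counting and matplotlib 3.10.9 for plots, under Python 3.11.15.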

Additional observations from a re-analysis of the deposited data

How the results depend on the processing

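A threshold of −log10 p of at least 12 moved most counts. It left 10 of the 42 receptor genes with a MAX promoter peak (23.4% of all protein-coding genes), 7 MAX and 0 BMAL1 peaks in receptor gene bodies, and 1 of 13 MAX promoter peaks overlapping BMAL1 (4.76% overall), which follows from the fewer peaks kept. A summit within 300 bp of a TSS left THRA as the 1 gene with a BMAL1 promoter peak (1.35% of all protein-coding genes), because the ESRRA and NR6A1 summits lie farther upstream. Counting body peaks over 5 kb from a TSS left 11 for MAX. In place of a median fold enrichment of 11.4 at receptor promoters and 10.2 at all coding promoters, the median −log10 p was 12.1 and 13.1, and the median pileup 17 and 18, so the order of the medians depends on the measure. With 1 canonical TSS per gene, 13 receptor genes had a MAX promoter peak (31.9% overall) and 2 a BMAL1 promoter peak, and with CACGTG or either of the variants CACGTT or CACGCG, 12 of 25 summits held a match (40.6% overall). The other alternatives stayed within 1.5 times the main count or moved the median by less than its spread. Peaks rest on few fragments at this depth, with 10 to 61 at the summits of the receptor MAX promoter peaks, so a weak site may be listed or missed by counting error. No paired analysis was possible because each antibody has 1 library and no result comes from a test.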
